A study of Mus musculus with 4 samples.

Results

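The genes described here are 10 noncoding genes of the mouse that carry small nucleolar RNAs (snoRNAs) in their introns: *Gas5*, *Snhg1*, *Snhg3*, *Snhg4*, *Snhg5*, *Snhg6*, *Snhg8*, *Snhg12*, *Snhg15* and *Snhg17*. They were chosen by name, as noncoding snoRNA hosts, with earlier results of these data known. The same holds for the gene lists set beside them below, so shares called in these lists are descriptions only. A gene ID was matched for 7 of the 10 among the 39179 genes counted in each library, and all 7 were among the 11483 genes tested. *Snhg1*, *Snhg4* and *Snhg8* could not be matched to a counted ID through the GENCODE M21 annotation, and their expression was not analysed here.

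RNA-seq compared 2 libraries of control cells with 2 libraries of TRCs. Control cells were the parental B16F1 line, derived from a mouse melanoma. TRCs (tumor repopulating cells) came from the same line, as spheroids grown in soft 3D fibrin gels of 90 Pa and taken out on day 5. No drug or genetic change is named for either group, and because only a part of the seeded cells forms spheroids, selection of cells and culture in the gel cannot be told apart.

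A snoRNA host gene is transcribed and spliced like other genes, and its snoRNAs are trimmed out of the removed introns. The snoRNAs then bind a set of core proteins and guide chemical marks on ribosomal RNA: those with C and D boxes guide methylation of the ribose, and those with H and ACA boxes guide the change of uridine to pseudouridine. The spliced RNA of a noncoding host is left over, usually has no long reading frame, and for several hosts is degraded by nonsense-mediated decay when ribosomes engage it. *Gas5*, the best known, is named for its accumulation in growth-arrested cells. Its RNA, like that of several other hosts and of ribosomal protein genes, starts with a pyrimidine tract (5′TOP), which couples its fate to translation.

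The libraries held between 35948295 and 43511554 counts on genes, and 3 counts, taken as the limit of detection, were at most 0.0835 CPM (counts scaled to a common library size). Levels below are CPM scaled by TMM factors, and the libraries were made from polyadenylated RNA. In bulk libraries, fewer cells expressing a gene and less RNA per cell cannot be told apart. Nothing in the labels says that the libraries of a group came from separate cultures, so the p-values measure only the spread between these libraries, which may be technical. All 7 melanocyte markers were detected, with a summed level of 15712 to 18915 CPM in control libraries and 23969 to 26669 CPM in TRC libraries. Only *Dct* passed an FDR of 0.05, with a log2 fold change of 1.08 (SE 0.21, edgeR exact test, FDR = 0.000307). The groups overlapped for *Mlana*, *Tyr*, *Tyrp1*, *Sox10* and *Mitf*. Of 7 leukocyte markers, 5, *Ptprc* among them, were at 0 counts in every library. The others, *Cd68* and *Lyz2*, were detected. The summed level of the leukocyte markers was 2.04 to 4.93 CPM in control libraries and 1.66 to 2.09 CPM in TRC libraries. Of 6 endothelial and fibroblast markers, 2 were at 0 counts. The summed level of the 6 was 9.98 to 11.5 CPM in control libraries and 3.00 to 5.58 CPM in TRC libraries. Among them only *Col1a2* was called, with means of 7.25 CPM in control cells and 1.26 CPM in TRCs. Its log2 fold change was -2.52 (SE 0.44, edgeR exact test, FDR = 4.15e-06). For *Col1a1* and *Pdgfra* the groups overlapped. The part of these markers in the results below was not tested.

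The measured hosts hold 24 annotated snoRNA genes. *Snord80* in *Gas5* and *Snora16a* in *Snhg12* each have duplicate gene IDs at nearly the same position. Each ID is taken as a gene here, so that there are fewer separate snoRNAs than genes. Among the 24 sequences, 12 had a C box (TGATGA in the first 20 bases) and a D box (CTGA in the last 15). ACA exactly 3 bases before the 3′ end was found in 6, and 6 had neither. Over all 1558 annotated snoRNA and small Cajal body RNA sequences, these shares were 19.9% and 19.3%. The sequences below, from GENCODE M21 transcripts (GRCm38), show what these hosts carry, with the C and D boxes or the ACA in capitals. The pair in *Snhg5* is shown because it is almost a repeat, and the others give 1 cargo of each of 4 further hosts.

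*Snord50a*, in *Snhg5*, chr9:88521529-88521600, minus strand: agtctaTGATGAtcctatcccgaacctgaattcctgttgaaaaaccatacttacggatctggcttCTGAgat
*Snord50b*, in *Snhg5*, chr9:88521797-88521868, minus strand: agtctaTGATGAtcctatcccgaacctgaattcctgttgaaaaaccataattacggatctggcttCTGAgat
*Snord47*, in *Gas5*, chr1:161038082-161038158, plus strand: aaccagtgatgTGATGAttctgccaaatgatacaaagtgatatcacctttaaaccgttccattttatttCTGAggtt
*Snord99*, in *Snhg12*, chr4:132310691-132310764, plus strand: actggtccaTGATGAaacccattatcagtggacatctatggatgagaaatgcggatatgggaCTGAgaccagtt
*Snord87*, in *Snhg6*, chr1:9942463-9942549, minus strand: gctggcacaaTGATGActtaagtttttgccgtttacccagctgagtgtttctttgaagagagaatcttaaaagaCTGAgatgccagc
*Snora9*, in *Snhg15*, chr11:6528033-6528165, minus strand: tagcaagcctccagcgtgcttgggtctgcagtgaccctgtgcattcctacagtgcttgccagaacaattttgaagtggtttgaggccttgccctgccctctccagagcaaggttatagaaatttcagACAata

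*Snord50a* and *Snord50b* were both 72 bases long and differed at 1 position, C50A, counted from 1 at the 5′ end with the base of *Snord50a* first. The pair in *Snhg3*, *Snora73a* and *Snora73b*, had 205 bases each and 7 differences, an identity of 96.6%. Of the 24 snoRNA genes, 22 overlapped an exon of some annotated transcript of their host, so that a read there lies on both genes. The drawing of the 7 gene models shows these positions.

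**Figure D1:**
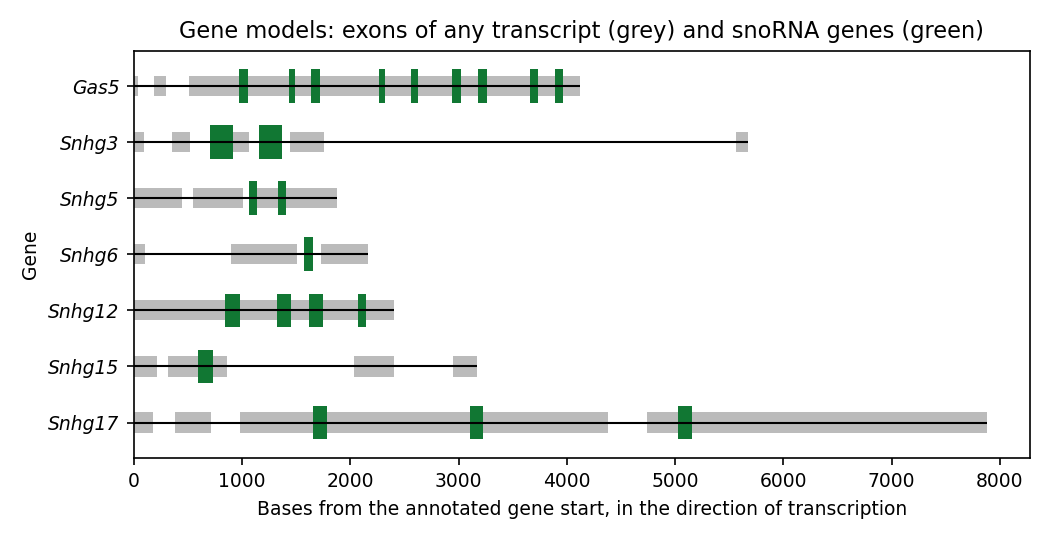
Exons of any annotated transcript (grey) and snoRNA genes (green) of the 7 measured hosts, drawn to scale in bases from the annotated start, in the direction of transcription (GENCODE M21, GRCm38). By gene ID, *Gas5* holds 10 snoRNA genes, *Snhg12* 5, *Snhg17* 3, *Snhg3* and *Snhg5* 2 each, and *Snhg6* and *Snhg15* 1 each. Duplicate IDs of *Snord80* in *Gas5* and of *Snora16a* in *Snhg12* are included. Exons covered from 17.4% of the span of *Snhg3* to 100% of that of *Snhg12*.

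The level of all 7 measured hosts was lower in both TRC libraries than in either control library, and 5 of them (*Snhg3*, *Snhg5*, *Snhg12*, *Snhg15* and *Snhg17*) fell in TRCs at an FDR under 0.05 in the exact test of edgeR. Among all genes tested, 15.9% were called in either direction, 7.05% lower and 8.81% higher, and 30.4% had both TRC libraries below both control libraries. The quasi-likelihood test of edgeR called 3 of the 7 lower, where it called 9.18% of all genes, 4.24% lower and 4.94% higher, and DESeq2 called 6 of the 7 lower, where it called 17.7% of all genes, 8.24% lower and 9.49% higher. No measured host was called higher by any of these tests, and 0 had a higher level at an unadjusted p under 0.05. The median log2 fold change of the 7 was -1.47, with a range of -1.86 to -0.31, against 0.0034 over all genes tested. Without control replicate 1 the median of the 7 was -0.75, and without control replicate 3 it was -1.39. It was -1.22 without TRC replicate 1 and -1.51 without TRC replicate 3. No measured host was below 1 CPM in any library, as the levels ran from 3.87 CPM for *Snhg15* in a TRC library to 273 CPM for *Gas5* in a control library. The plot of levels by library shows each value.

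**Figure D2:**
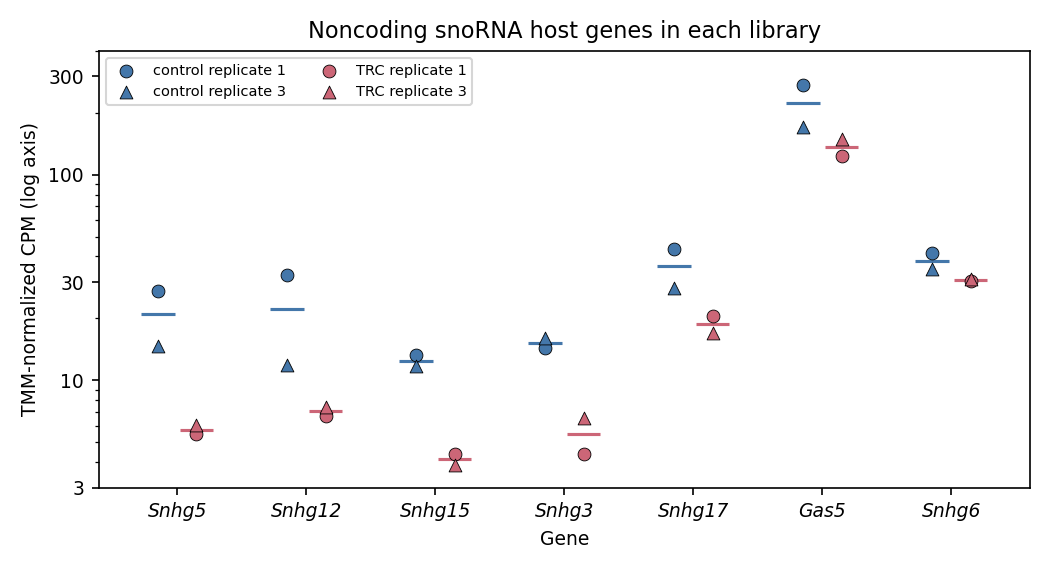
TMM-normalized CPM (log axis) of the 7 measured noncoding snoRNA hosts in each of the 4 libraries, 2 control and 2 TRC. In every gene both TRC points lie below both control points, and the gap between the groups is narrowest for *Snhg6* and *Gas5*.

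*Snhg5*, on chromosome 9 (chr9:88521050-88522929, minus strand, GRCm38), had the largest fall. Control replicates 1 and 3 had 27.1 and 14.7 CPM, against 5.46 and 6.03 CPM in TRC replicates 1 and 3, the order used for each pair of values from here on. Both TRC libraries were far below the lower control, by 2.44 times at the nearest, while the controls themselves differed 1.84-fold. The mean went from 20.9 ± 8.71 to 5.75 ± 0.404 CPM (SD, n = 2), which gave -1.86 as log2 fold change (SE 0.36, edgeR exact test, FDR = 7.44e-05). It was the only measured host with an FDR under 0.05 in all 11 alternative settings, where its FDR reached 0.0392 at most.

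*Snhg15* (chr11:6525591-6528760, minus strand), host of *Snora9*, had the widest gap between groups. Control libraries had 13.2 and 11.7 CPM and TRC libraries 4.40 and 3.87 CPM. The replicates of each group lay close together, and the lower control was 2.65 times the higher TRC library. From 12.4 ± 1.08 to 4.14 ± 0.377 CPM (SD, n = 2), the log2 fold change was -1.59 (SE 0.32, edgeR exact test, FDR = 0.00109). The FDR was 0.0749 without TRC replicate 3, with a log2 fold change of -1.51.

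*Snhg3* (chr4:132348014-132353686, minus strand) carries *Snora73a* and *Snora73b*, known as U17, which take part in cleavage of the ribosomal RNA precursor and not in guiding a modification. Its level was 14.3 and 16.04 CPM in control libraries and 4.38 and 6.59 CPM in TRC libraries. It was the only measured host that was lower in control replicate 1 than in control replicate 3, and both TRC libraries were well below either. The mean fell from 15.2 ± 1.21 to 5.48 ± 1.56 CPM (SD, n = 2), which gave -1.47 as log2 fold change (SE 0.34, edgeR exact test, FDR = 0.00261). Without TRC replicate 1 the FDR was 0.134, with a log2 fold change of -1.22.

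Nearly all of *Snhg3* lies within the span of *Rcc1*, which encodes the nucleotide exchange factor of Ran, on the same strand. The genes share 135 bp of exon, 13.7% of the exon bases of *Snhg3*, so that reads there cannot be assigned to one of them with certainty. *Rcc1* had 70.5 and 103 CPM in control libraries and 34.95 and 43.3 CPM in TRC libraries, and fell as well, with a log2 fold change of -1.15 (SE 0.27, edgeR exact test, FDR = 0.000219). It was chosen for its overlap after the values were seen. On the opposite strand, *Gm17300* overlaps 71.5% of the exon bases of *Snhg3* and had 0 counts in all 4 libraries.

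*Snhg12* (chr4:132308623-132311024, plus strand) holds 5 annotated snoRNA genes, with the duplicate IDs of *Snora16a* among them. It had 32.5 and 11.9 CPM in control libraries, and 6.74 and 7.45 CPM in TRC libraries. Control replicate 1 stood 2.73 times above control replicate 3, the widest gap of any measured host, whereas the TRC libraries were close to each other. The log2 fold change from 22.2 ± 14.6 to 7.09 ± 0.506 CPM (SD, n = 2) was -1.65 (SE 0.44, edgeR exact test, FDR = 0.00375). Without control replicate 1 the log2 fold change was -0.75 and the FDR 0.237, and *Snhg12* was called in 6 of 11 alternatives.

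*Snhg17* (chr2:158353700-158361580, minus strand) had the smallest fall among the 5. Its level was 43.7 and 28.1 CPM in control libraries and 20.4 and 17.0 CPM in TRC libraries. The lower control was 1.38 times the higher TRC library, less than the 1.55-fold gap between the controls. The mean went from 35.9 ± 10.97 to 18.7 ± 2.41 CPM (SD, n = 2), which gave -0.94 as log2 fold change (SE 0.29, edgeR exact test, FDR = 0.0154). With all 4 libraries it did not pass in the quasi-likelihood test of edgeR (FDR = 0.0608 without and 0.0595 with the replicate number as a block). Without control replicate 1 the log2 fold change was -0.59, without TRC replicate 1 it was -1.09 and without TRC replicate 3 it was -0.82. *Snhg17* was called in 6 of 11 alternatives.

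*Gas5* (chr1:161034422-161038539, plus strand) was the most abundant measured host and made up 59.4% to 67.4% of the summed CPM of the 7. Its level was 273 and 171 CPM in control libraries and 123 and 149 CPM in TRC libraries. The groups did not overlap, but control replicate 3 was only 1.15 times TRC replicate 3. The mean was 222 ± 71.8 CPM in control cells and 136 ± 18.3 CPM in TRCs (SD, n = 2). The log2 fold change, -0.70 (SE 0.27), did not pass the threshold (edgeR exact test, FDR = 0.0524). The FDR was 0.00723 without control replicate 3, 0.0388 when scaled by library size only and 0.0484 with DESeq2, and 0.446 without control replicate 1, where the log2 fold change was -0.33.

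*Snhg6* (chr1:9941959-9944118, minus strand), host of *Snord87*, had the smallest difference. It had 41.5 and 34.6 CPM in control libraries and 30.5 and 31.1 CPM in TRC libraries. The TRC libraries were nearly equal, and both were just below control replicate 3. The log2 fold change was -0.31 (SE 0.23, edgeR exact test, FDR = 0.444), and it was not called in any of 11 alternatives. The plot of fold changes shows how far each of the 7 moved when a library was left out.

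**Figure D3:**
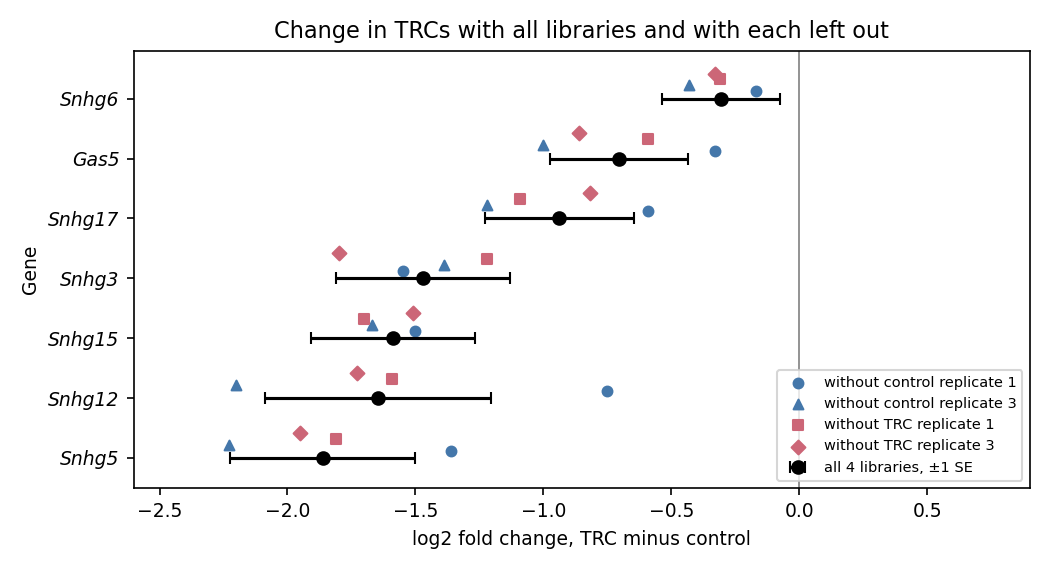
Log2 fold change of TRC minus control for the 7 measured hosts, with all 4 libraries (black, bars ± 1 SE) and with each library left out in turn (colored symbols). Every point is below 0, *Snhg15* moved least (-1.70 to -1.5) and *Snhg12* most (-2.20 to -0.75).

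The spread among controls was shared by most of the hosts. In control replicate 1, 6 of the 7 were higher than in control replicate 3, with a median log2 difference of 0.62 (CPM plus 0.5), where all genes tested had an SD of 0.45 for the same difference. Between the TRC libraries, 2 of 7 were higher in replicate 1, and the median difference was -0.13. The summed level of the 7 was 445 and 288 CPM in control libraries and 195 and 221 CPM in TRC libraries. Both sums in TRCs had to be below both in control cells, because this held for each of the 7. *Gas5*, which was not called, made up most of each sum.

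Exon lengths here are those of GENCODE M21 and not of the older Ensembl annotation that the study used, so levels per kb are approximate. Per kb of exon, summed over all transcripts, *Gas5* had the highest mean level in control cells at 59.0 CPM per kb. *Snhg6* at 33.2 and *Snhg3* at 15.4 followed. *Snhg5* (12.1), *Snhg12* (9.24) and *Snhg15* (9.15) came next in CPM per kb and *Snhg17* was lowest (5.09). From *Snhg3* to *Snhg15* neighbours in this order overlapped between libraries, whereas *Gas5*, *Snhg6* and *Snhg17* stood apart from their neighbours. In TRCs *Gas5* (36.3), *Snhg6* (26.8) and *Snhg3* (5.56) kept the first places in CPM per kb, and *Snhg5*, *Snhg15*, *Snhg12* and *Snhg17*, from 3.32 down to 2.66, overlapped with their neighbours. With the length of the longest transcript in place of all exons, the first 3 places were the same in both groups and the order of the others was not.

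The snoRNA genes inside the measured hosts had few counts of their own, 56 and 41 in control libraries and 36 and 15 in TRC libraries, over 22 counted genes. At least 3 counts in a library were seen for *Snord87* (33 and 12 counts in control and 18 and 8 in TRC libraries), *Snora16a* (13, 13, 6 and 4) and *Gm24411* in *Snhg17* (10, 16, 12 and 3). All 3 were under 1 CPM in every library and were not tested. Mature snoRNAs have no polyA tail, and their levels cannot be read from these libraries.

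*Snora24*, inside *Snhg8* and overlapping an exon of it (chr3:123507937-123508066, minus strand), was an exception among the snoRNA genes of the 10 hosts, in that it passed the filter. Its sequence, with the ACA in capitals, is shown because the expression of *Snhg8* itself was not analysed here.

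*Snora24*: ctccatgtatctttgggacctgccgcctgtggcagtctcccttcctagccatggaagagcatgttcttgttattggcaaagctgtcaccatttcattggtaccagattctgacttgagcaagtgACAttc

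It had 76 and 59 counts in control libraries and 19 and 26 in TRC libraries, or 1.71, 1.67, 0.457 and 0.625 CPM. Both TRC libraries were below both controls. *Snora24* passed the filter through the control libraries alone, so that it had to be higher in them, and no test of it is given. Whether these reads came from the snoRNA or from *Snhg8* RNA was not tested.

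The starts of the hosts were searched for sequence motifs in the 300-base windows of RefSeq (GRCm38.p6), with 10 windows for 8 of the 10 genes and none for *Snhg4* and *Snhg6*. A C followed by at least 5 more pyrimidines within 15 bases of the start, as in a 5′TOP RNA, was found on the sense strand in 3 of the 10 windows (*Gas5*, *Snhg8* and *Snhg12*), against 22.5% of all 32851 windows. CACGTG, the E-box bound by Myc and other factors, which reads the same on both strands, was in 1 of the 10 (*Snhg15*), against 7.15% of windows. The letters TATA, 40 to 21 bases before the start on the sense strand, were in 4 of the 10 (*Gas5*, *Snhg1*, *Snhg8* and *Snhg12*), against 5.34% of windows. The search for TATA was added after the sequences were seen. *Snhg5* has the same letters 1 base too near to its start to be counted. A match is a description of letters and not a site. The 45 bases before and 30 bases from the start are given for 4 hosts, those with the strongest falls beside *Gas5*, with matches in capitals. For *Gas5*, the window with matches is shown, and the other had none.

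*Gas5*, chr1:161035121-161035195, plus strand: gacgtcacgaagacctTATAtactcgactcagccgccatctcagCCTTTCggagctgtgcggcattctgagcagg
*Snhg12*, chr4:132308633-132308707, plus strand: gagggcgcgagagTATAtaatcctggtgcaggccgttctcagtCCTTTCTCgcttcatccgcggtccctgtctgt
*Snhg5*, chr9:88522868-88522942, minus strand: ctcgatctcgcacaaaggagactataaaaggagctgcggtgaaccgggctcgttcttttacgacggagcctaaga
*Snhg15*, chr11:6528731-6528805, minus strand: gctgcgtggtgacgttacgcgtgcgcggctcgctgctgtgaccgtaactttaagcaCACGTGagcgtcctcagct

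Protein-coding genes that start on the opposite strand within 5 kb of a host were found for *Gas5* and *Snhg1*. *Zbtb37*, a zinc finger gene whose start lies 427 bp from that of *Gas5*, had 13.8 and 11.02 CPM in control libraries and 14.3 and 10.9 CPM in TRC libraries. The groups overlapped, with a log2 fold change of 0.02 (edgeR exact test, FDR = 0.984). *Slc3a2*, which encodes the heavy chain of amino acid transporters, starts 106 bp from *Snhg1* and had 496 and 260 CPM in control libraries and 292 and 283 CPM in TRC libraries. Control replicate 3 was below both TRC libraries, and the log2 fold change was -0.40 (SE 0.30, edgeR exact test, FDR = 0.393).

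The genes nearest to *Gas5* in their pattern over the 4 libraries, by Euclidean distance of centred log2 values (CPM plus 0.5), were *Bcat1*, *Tars*, *Taf15*, *Map1b* and *Aars*, with distances of 0.048 to 0.127. *Bcat1* encodes a transaminase of branched-chain amino acids, and *Tars* and *Aars* encode tRNA synthetases. With 4 libraries from 2 groups many genes can have such a pattern, and the other hosts ranked from 242 (*Snhg17*) and 438 (*Snhg6*) to 7201 (*Snhg5*) of the genes tested.

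Other noncoding hosts were fewer. Of 12 named, 7 were matched in the counts and 3 tested, of which *Zfas1* fell. Its level was 69.5 and 53.6 CPM in control libraries and 32.4 and 35.2 CPM in TRC libraries, without overlap, for a log2 fold change of -0.86 (SE 0.23, edgeR exact test, FDR = 0.00461), called in 7 of 11 alternatives. Its FDR was 0.0783 without control replicate 1, 0.124 without TRC replicate 1 and 0.0656 without TRC replicate 3. *Snhg20* (-0.64, FDR = 0.267) and *Epb41l4aos* (-0.57, FDR = 0.388) did not pass the same test. *Snhg9*, *Snhg11*, *Snhg18* and *Rian* were under the filter, and *Rian* had 0 counts. *Snhg11* is annotated as protein-coding and is in the list of protein-coding hosts as well, where it was not tested either.

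Protein-coding genes can host snoRNAs too, and 216 of 266 such genes in the counts were tested. Of these, 33 (15.3%) fell and 6 (2.78%) rose, where 7.05% and 8.81% of all genes did, and the median log2 fold change was -0.11. The quasi-likelihood test called 25 lower and 3 higher, where it called 4.24% and 4.94% of all genes. Calls with a library left out are set beside those of all genes at the end. Among the 30 ribosomal protein genes in this list none was called by the exact or quasi-likelihood test of edgeR or by DESeq2 and 0 had an unadjusted p under 0.05, with log2 fold changes of -0.41 to 0.32 and a median of 0.01. This split of the list was made after the data were seen. *Rcc1*, which fell, is in the list because its span holds the snoRNA genes of *Snhg3*. *Nop58* and *Nop56*, core proteins of C/D snoRNPs, *Dkc1*, the pseudouridine synthase of H/ACA snoRNPs, and *Tsr1*, a ribosome assembly factor, had the smallest FDR. *Nop58* went from 338 ± 16.4 to 106 ± 0.678 CPM (SD, n = 2), which gave -1.67 as log2 fold change (SE 0.19, edgeR exact test, FDR = 6.49e-11), and *Tsr1* from 121 ± 5.84 to 44.8 ± 4.89 CPM, a log2 fold change of -1.43 (SE 0.21, FDR = 3.95e-08).

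Among 18 proteins that bind or assemble snoRNAs, 9 fell in the exact test of edgeR, where 7.05% of all genes tested did, and the median log2 fold change was -0.64. The quasi-likelihood test called 6 lower, where it called 4.24% of all genes lower. DESeq2 called 9 lower, where it called 8.24% of all genes lower. None of the 18 was higher in any of these tests or at an unadjusted p under 0.05. How many were called with a library left out is given at the end, beside the numbers for all genes. *Nop56* (-1.57, SE 0.20), *Nolc1* (-1.52, SE 0.21), a chaperone of snoRNPs, and *Dkc1* (-1.49, SE 0.24) followed *Nop58*. *Nop56*, *Nop58* and *Dkc1* are themselves snoRNA hosts and count in both lists. The 4 were called in all 11 alternatives.

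Of 21 factors of nonsense-mediated decay, 3 (14.3%) fell in the exact test of edgeR, where 7.05% of all genes tested did, and the median log2 fold change was -0.44. The quasi-likelihood test called 2 lower, where it called 4.24% of all genes lower. DESeq2 called 3 lower, where it called 8.24% of all genes lower. None of the 21 was higher in these tests or at an unadjusted p under 0.05. With 1 library left out, the log2 fold change was -1.23 to -0.77 for *Smg5*, -0.93 to -0.77 for *Etf1* and -0.74 to -0.54 for *Upf2*. The numbers called in these refits are given at the end, beside those of all genes. *Smg5*, which promotes decay through Upf1 dephosphorylation, had a log2 fold change of -1.02 (SE 0.24, edgeR exact test, FDR = 0.000805), *Etf1*, the release factor that recognises stop codons, -0.85 (SE 0.19, FDR = 0.00313), and *Upf2* -0.63 (SE 0.21, FDR = 0.0348). *Eif4a3* of the exon junction complex, at -0.58 (FDR = 0.101), did not pass. The plot of gene lists sets these lists beside the measured hosts.

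**Figure D4:**
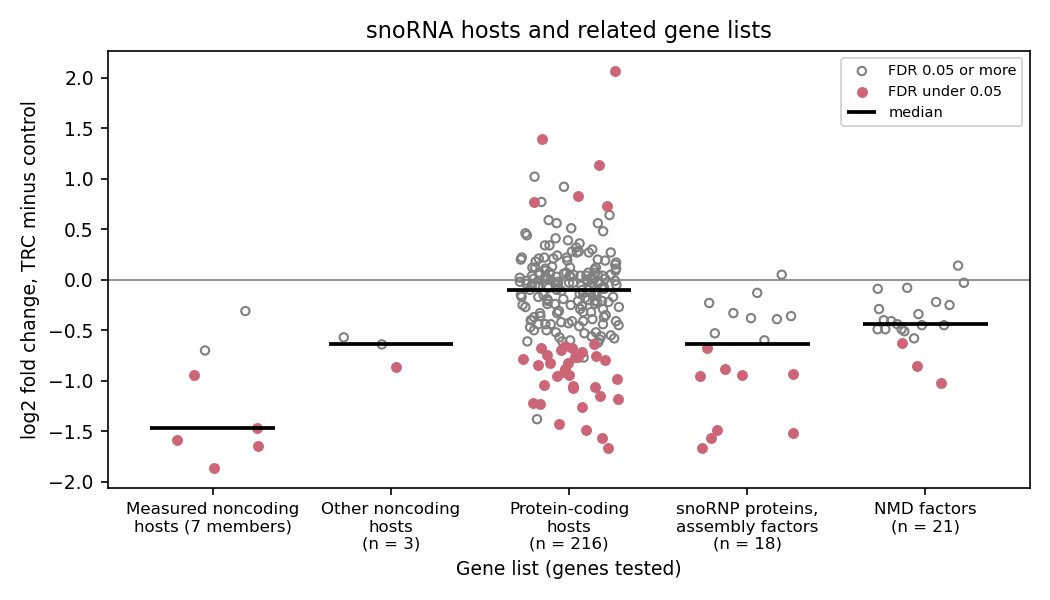
Log2 fold change of TRC minus control for each tested gene of 5 lists, filled where the FDR was under 0.05, with the median of each list as a line. The medians are -1.47 for the 7 measured hosts, -0.64 for the other noncoding hosts, -0.11 for protein-coding hosts, -0.64 for snoRNP proteins and assembly factors and -0.44 for nonsense-mediated decay factors.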

How the data were processed

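RNA-seq counts per gene were deposited by the authors for 2 libraries of parental B16F1 cells (control) and 2 of TRCs, as raw counts without normalization. Per the labels, polyA RNA was made into stranded libraries, and the submitters' processing notes name CASAVA 1.8.2, Trimmomatic 0.35, TopHat2 2.1.0, Bowtie2 2.2.6, SAMtools 1.3 and HTSeq, with GRCm38. The mode and strand setting of the counting are not given in the sources used here. Alignments that were not unique were 15.2% and 17.1% in control libraries and 18.3% and 25.2% in TRC libraries, highest in TRC replicate 3, and were not counted on a gene. Their part in the results was not tested. Ambiguous alignments were 0.825% to 0.955%, so reads of repeated or overlapping genes may be missing.

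Control replicate 1 had 42938268 counts on genes, control replicate 3 had 35948295, TRC replicate 1 had 40582604 and TRC replicate 3 had 43511554. A gene was dropped when 3 or more of the 4 libraries had under 1 CPM of it. TMM scaling, dispersion estimates (common, then tagwise) and an exact test followed in edgeR 4.0.16 under R 4.3.3 (prior count 0.125), with Benjamini-Hochberg adjustment over the 11483 genes left and a threshold of 0.05. The biological coefficient of variation was 21.2%. Standard errors came from DESeq2 1.42.0. With 2 libraries per group an exact permutation test of 1 gene cannot give a two-sided p below 0.333, so none was used. The limit of 3 counts covers counting error only, whereas the standard errors include the spread between libraries.

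Symbols, positions and exons came from GENCODE M21 (37607 IDs and 11398 of the tested genes had a symbol), and start windows from RefSeq. The study's methods name an older Ensembl annotation. Exon lengths and overlaps given here may therefore differ from those of the gene models on which reads were counted. The gene lists were written by hand, except for protein-coding hosts, which are genes whose span holds an annotated snoRNA gene on the same strand. Named genes are all members, the 4 genes with the smallest FDR of each list, the opposite-strand gene starting nearest to a member, snoRNA genes with at least 3 counts, and the 5 genes nearest to *Gas5*. Genes outside this rule, *Rcc1*, *Gm17300* and the markers of cell types, are named for their overlap with a host or as a check of the cells. The members and lists were chosen with earlier results of these data known. In simulated data with 2 libraries per group, 170 of 200 genes changed by 1.5 on the log2 scale were recovered among 11483 genes, with 27 false calls. Alternatives were other filters, scalings and tests, and leaving out each library. Figures were drawn with matplotlib 3.10.9.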

Additional observations from a re-analysis of the deposited data

How the results depend on the processing

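The 5 called hosts became 3 with the quasi-likelihood test of edgeR and 2 to 6 with 1 library left out (2 without either TRC library, 3 without control replicate 1, 6 without control replicate 3). The median log2 fold change of the 7 ranged from -1.51 to -0.75, the latter without control replicate 1. A fit with 1 library in a group assumes that it varies like the other group. With a library left out, 4 to 8 snoRNP genes were called (9 with all), 0 to 3 decay factors (3), 14 to 37 protein-coding hosts (39), 0 to 1 other noncoding hosts (1) and 773 to 1932 genes in all (1822). The quasi-likelihood test called 1054 genes.

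Control and TRC libraries share the replicate numbers 1 and 3, but nothing says that a number marks a shared culture, and deviations of same-numbered libraries had a correlation of 0.0267 over 11483 genes. With the replicate number as a block, the quasi-likelihood test called 3 hosts, 5 snoRNP genes, 20 protein-coding hosts, 0 other noncoding hosts and 785 genes in all.

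Over 231 refits of 21 named genes (11 each), 195 kept their direction and side of the threshold, 27 lost the call, 4 gained it and 5 changed sign. The sign changes were of genes that were not called: *Zbtb37* had -0.01 without a filter and -0.01 scaled by library size only, and between -0.21 and 0.19 with a library left out, and *Slc3a2* ranged from -0.79 to 0.15, the latter without control replicate 1. No scaling or filter moved the median of all genes by over 0.1 on the log2 scale. With 2 libraries per group, a host that missed the threshold is not shown to be unchanged.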
